A study of Homo sapiens with 42 samples.

Results

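The genes described here are 58 markers of the dividing cell, 29 expressed mainly in S phase (PCNA to CLSPN) and 29 in mitosis (CDK1 to UBE2C). They were chosen by symbol, and each matched 1 row in every table, out of 57820 rows for Reh and 697 and 57793 for RS411, RCH and SEM. Expression was measured by RNA-seq in 42 libraries from 5 established B-lineage acute lymphoblastic leukaemia (B-ALL) cell lines. Reh and 697 overexpressed the histone methyltransferase NSD2, as the wild-type protein (WT) or as its mutant E1099K (EK), and were compared with an empty vector (EV), with 2 libraries per arm in Reh and 3 in 697. RS411, RCH and SEM carried an shRNA, with a non-targeted hairpin as control (NT) and sh2 or sh5 as the other arms, with 3 libraries per arm. The study's design text describes sh2 as the NSD2 knockdown and does not describe sh5, which is named in the sample titles, so both are called here by their titles. The labels name no agent for any arm, and neither a clone, a promoter for the constructs nor a harvest time was found in them. The question was whether the S phase genes or the mitosis genes shifted when NSD2 was raised or lowered, and each arm was set against EV or NT of its own line.

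S phase genes encode the machinery that copies DNA: the MCM helicase and the factors that load and start it, the PCNA clamp and its loader, and the enzymes that supply nucleotides. Many of them are targets of the E2F transcription factors, whose release from the retinoblastoma protein marks entry into the cycle. Mitosis genes encode the kinases, kinesins, spindle checkpoint proteins and ubiquitin ligase parts that condense, align and separate the chromosomes, and their transcripts peak later, in G2 and M, when the DREAM and MuvB complexes hand over to activators at CHR and CCAAT elements. In a culture that is not synchronised, the level of either group reflects how many cells are in those phases as well as how much RNA each cell holds. NSD2 places methyl groups on lysine residues of histone H3, and its EK form is a gain-of-function mutant found in B-ALL.

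The level of NSD2 checked the labels, and it matched them in each line. In Reh it was at 576 and 581 CPM with EV, 1747 and 1637 with WT, and 1831 and 1533 with EK, where CPM is the count scaled to a common library size after normalization. In 697, whose deposited table holds the authors' normalized counts, it was at 10854, 10725 and 7723 normalized counts with EV, 110659, 87706 and 80839 with WT, and 102025, 84869.7 and 70828 with EK. The knockdown lines held 289, 329 and 305 CPM with NT, 155, 157 and 254 with sh2, and 167, 142 and 210.2 with sh5 in RS411. RCH held 327, 344 and 352 CPM with NT, 142, 205 and 252 with sh2, and 151, 227 and 209 with sh5, and SEM 331, 335 and 364 CPM with NT, 166, 173 and 179 with sh2, and 132, 146 and 146 with sh5. The lowered arms lay below NT in every line, while sh2 replicate 3 of RS411 and of RCH kept more NSD2 than the other sh2 libraries. Reads assigned to genes numbered 23688482 to 27244031 per library in Reh, 40664735 to 57179806 in 697 (recovered from its normalized table), 27767490 to 67651596 in RS411, 21876505 to 54879265 in RCH and 32508206 to 39468598 in SEM. PAX5, a transcription factor that defines B-lineage cells, was expressed in all 5 lines. It was at 538 to 656 CPM in SEM, 322 to 480.2 in RCH, 383 to 478 in RS411 and 440 to 542 in Reh. In 697 it was at 24152 to 44032 normalized counts. MME, the CD10 antigen, was at 0 to 0.465 CPM in SEM. It ran from 5.49 to 292 CPM in RCH, 1.65 to 11.8 in RS411 and 796 to 969 in Reh. In 697 MME was at 442 to 1769.7 normalized counts. Of 11 B-lymphoid markers, 10 had a mean above 1 CPM in SEM. The markers BLNK, DNTT and RAG1 were low there, reaching at most 4.58, 3.08 and 3.32 CPM. The labels do not say whether replicates were separate cultures, so p-values measure the spread between these libraries, which may be technical.

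Across genes, levels can be compared only per length, here the control mean per kilobase of merged exons. PCNA, the sliding clamp of the replication fork, was the highest of the 58 in every line, at 495 ± 56.9 CPM per kilobase in Reh, 292 ± 22.9 in RS411, 316 ± 37.9 in RCH and 287 ± 23.4 in SEM (SD, n = 2 for Reh and 3 for the others). MCM7, a subunit of the MCM helicase, came next in 697, RS411, RCH and SEM, while in Reh that place belonged to NUSAP1, a microtubule-bundling protein of the spindle (226 ± 4.90 CPM per kilobase), and MCM7 was the fourth (187 ± 23.0). CCNE1 (cyclin E1) and CDC25C, a phosphatase that activates CDK1, were the lowest 2 in each line, and CCNE1 reached only 1.78 ± 0.219 CPM per kilobase in SEM. An exon of 22 of the 58 members overlaps an exon of another gene, among them CCNE2 (INTS8), HMMR (HMMR-AS1), MCM7 (AP4M1) and PLK1 (ERN2), all on the opposite strand. Others, such as BUB1B (BUB1B-PAK6), FEN1 (FADS2) and CHAF1B (MORC3), overlap on the same strand, where strand cannot separate the reads. The library kit keeps strand, but the sources read for this work do not give whether counting used it. The levels of members with an opposite-strand overlap are uncertain to that extent, and those with a same-strand overlap either way.

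No member passed the test in 4 of the 5 lines when each was fitted alone. Calls were made with edgeR's quasi-likelihood test, or limma for 697, at an adjusted p under 0.05 over all genes tested. In SEM, 4 mitosis genes were lower with sh2, and with sh5 6 mitosis genes were lower and 1 S phase gene was higher. The background was 13.5% of all tested genes higher and 14.4% lower with sh2, and 11.1% higher and 10.2% lower with sh5. Counts of 4 and 6 of 29 lower set against the shares lower are near the background for sh2 and above it for sh5. At an unadjusted p under 0.05 (edgeR, either direction) there were 6 of 29 mitosis genes with sh2, where 37.4% of all genes were. With sh5 there were 7 of 29, where 32.7% of all genes were, so by this measure both counts lay below the background. No test of the lists was made. In bulk samples such as these, fewer cells in a phase and less RNA per cell cannot be told apart. In RS411 and 697 the mitosis genes varied between libraries of 1 arm with a median SD of 0.25 and 0.35 on the log2 scale, as the map of all 58 members in the 42 libraries shows.

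**Figure D1:**
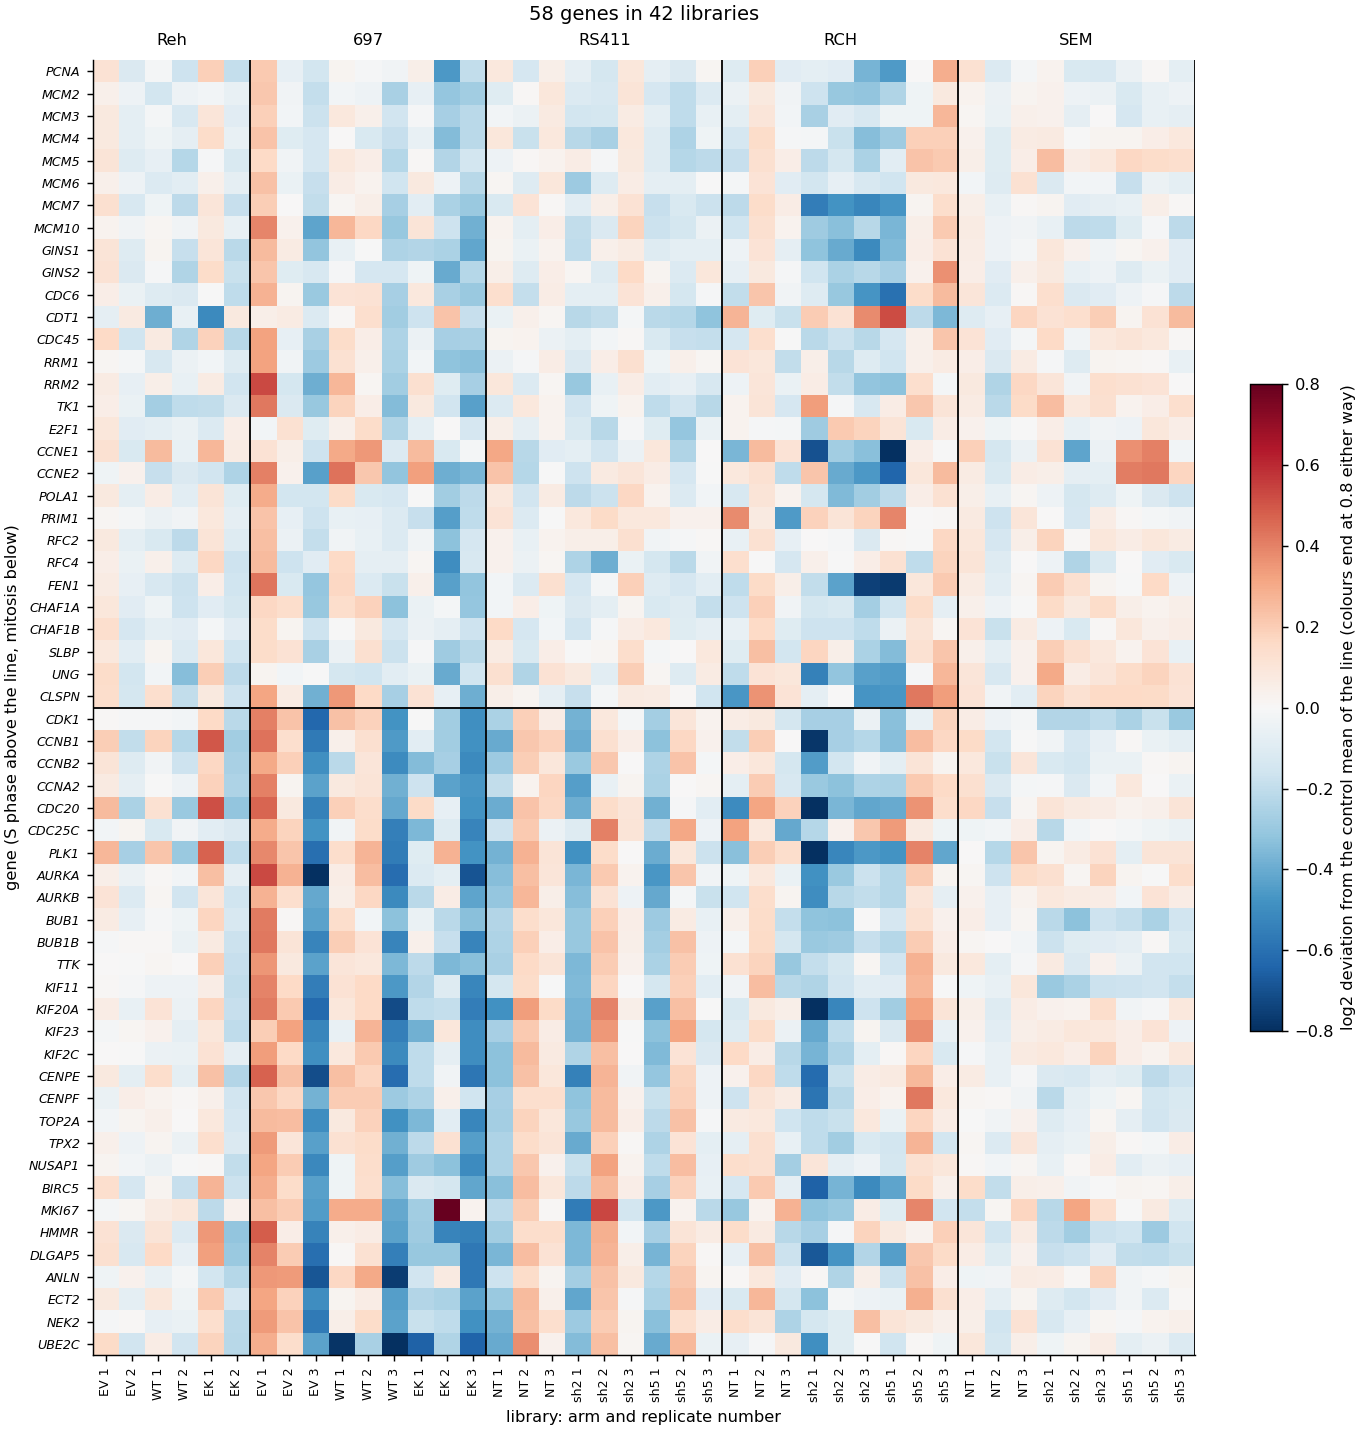
Level of each of the 58 genes (rows, S phase above mitosis) in each of the 42 libraries (columns, by line and arm). Values are the log2 difference from the gene's mean in the control arm of its line (EV or NT). The colour scale ends at 0.8 either way. The columns of replicate 1 in RS411 and replicate 3 in 697 are low for the mitosis genes in every arm.

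**Figure D2:**
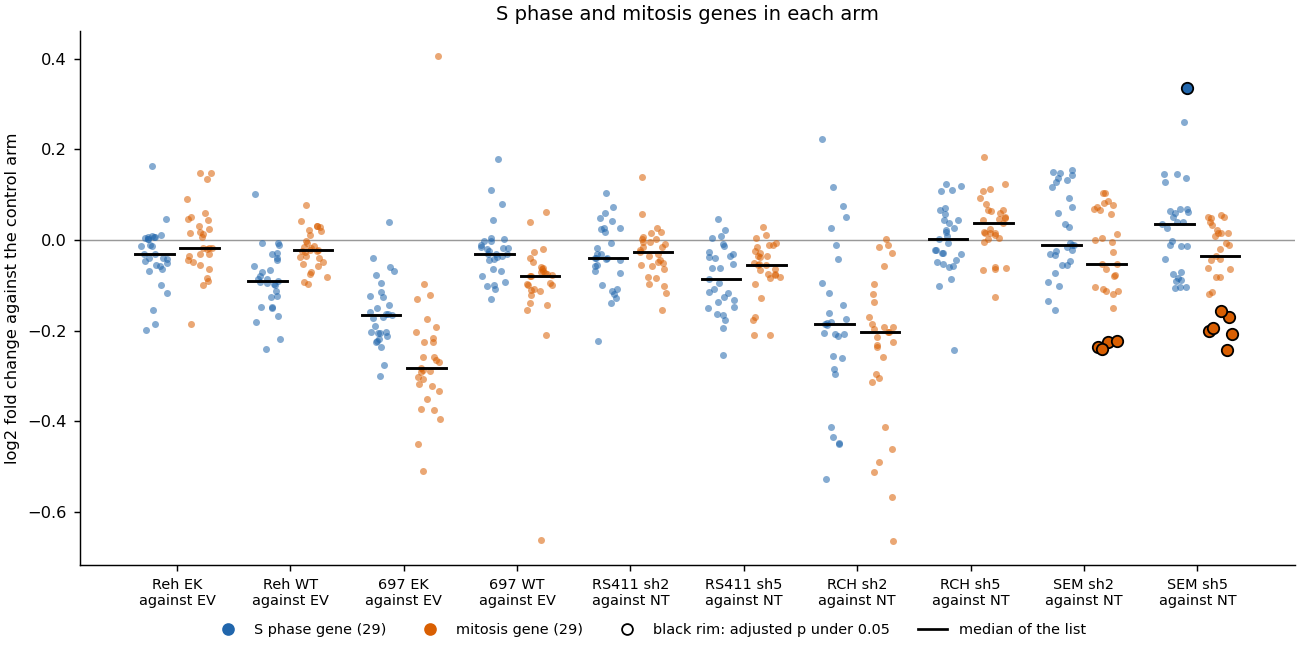
Log2 fold change of each member (points) in the 10 comparisons of an arm with EV or NT, S phase and mitosis apart, with the list medians as bars and called members marked. The called members are all in SEM, and the medians farthest from 0 are those of 697 EK (-0.16 and -0.28) and RCH sh2 (-0.19 and -0.20).

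In SEM, the genes that fell with sh2 were CDK1, BUB1, KIF11 and HMMR. CDK1, the cyclin-dependent kinase that drives entry into mitosis, was at 249, 233 and 237 CPM with NT, 203, 203 and 208 with sh2, and 201, 212 and 194 with sh5. All 6 knockdown libraries lay below the 3 NT libraries. With sh2 it fell by 14.4% (log2 fold change -0.23 ± 0.05 (SE), adjusted p = 0.00432), and with sh5 the log2 fold change was -0.24 ± 0.05 (SE), adjusted p = 0.00354. BUB1, a kinase of the spindle checkpoint, was at 236, 218 and 230.0 CPM with NT, 196, 181 and 203 with sh2, and 199.7, 191 and 204 with sh5, again with every knockdown library below NT. Its log2 fold change was -0.24 ± 0.06 (SE), adjusted p = 0.00575, with sh2 and -0.20 ± 0.06 (SE), adjusted p = 0.0205, with sh5. KIF11, the kinesin that pushes the spindle poles apart, was at 244, 239 and 266 CPM with NT, 203, 209.7 and 222 with sh2, and 222, 225 and 219 with sh5. The knockdown libraries were all below NT for it as well, and its log2 fold change was -0.24 ± 0.06 (SE), adjusted p = 0.00427, with sh2 and -0.17 ± 0.06 (SE), adjusted p = 0.0400, with sh5. HMMR, a spindle and hyaluronan-binding protein, passed in both comparisons but with sh5 its libraries (115, 105 and 115 CPM) overlapped NT (138, 115 and 135 CPM), and its fitted log2 fold changes were -0.22 ± 0.07 (SE), adjusted p = 0.0245, with sh2 and -0.21 ± 0.07 (SE), adjusted p = 0.0444, with sh5. With sh5, DLGAP5, which stabilises spindle fibres, was lower too, at 142, 127 and 139 CPM with NT, 119.8, 121 and 127 with sh2, and 119, 118 and 120.4 with sh5. The sh5 libraries were below NT, 1 sh2 library reached into the NT range, and the log2 fold change was -0.19 ± 0.05 (SE), adjusted p = 0.0196, with sh5 and -0.15 ± 0.05 (SE), adjusted p = 0.0560, with sh2. CENPE, a kinetochore kinesin, gave -0.16 ± 0.05 (SE), adjusted p = 0.0483, with sh5. Other settings ended 3 of the sh5 calls: DESeq2 those of HMMR (adjusted p = 0.0629) and CENPE (0.0649), and edgeR with every gene kept those of KIF11 (0.0813) and CENPE (0.152). The sh2 and sh5 comparisons share their NT libraries, so they are not independent, and set against each other directly sh2 and sh5 differed in 0 of 29 mitosis genes (edgeR; 0 at an unadjusted p under 0.05, where 23.4% of all genes were, and 0 by DESeq2).

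**Figure D3:**
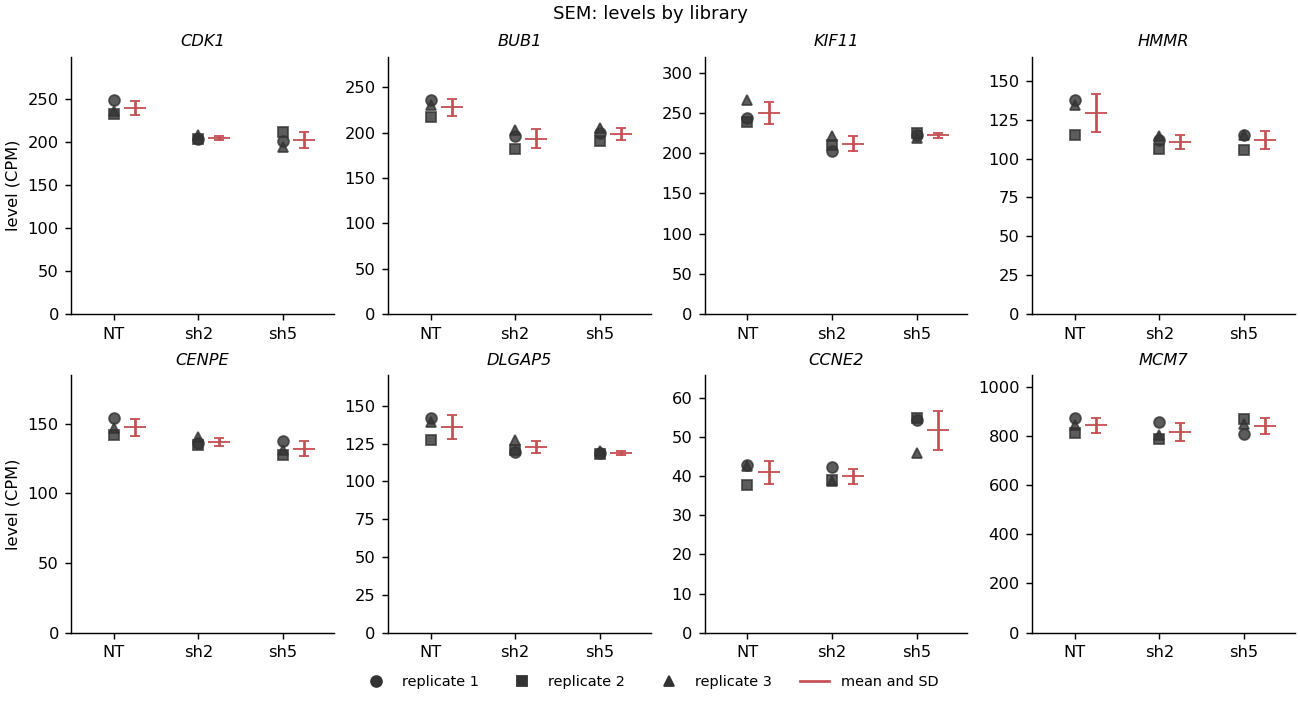
Level of 8 members (CPM) in the 9 SEM libraries, by arm, with points for libraries and bars for arm means. CDK1, BUB1 and KIF11 show every sh2 and sh5 library below NT, CCNE2 shows every sh5 library above NT, and MCM7 shows overlapping arms.

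The proximal promoters of the 4 genes called with sh2 are shown because CHR elements and CCAAT boxes are the known control elements of mitosis genes. Each run is the 150 bases before the RefSeq start on GRCh38.p14, 5′ to 3′ on the gene's strand, which is another build than the hg19 of the deposited tables. CDK1 lies at chr10:60778328-60778477, plus strand. BUB1 lies at chr2:110678064-110678213, minus strand. KIF11 lies at chr10:92592980-92593129, plus strand. HMMR lies at chr5:163460482-163460631, plus strand. Capitals mark TTTGAA (CHR), CCAAT, and the E2F sites TTTCCCGC, TTTGGCGC or TTTCGCGC, each searched on both strands, so ATTGG and TTCAAA are the reverse complements of CCAAT and TTTGAA. In HMMR the run CCAATTGG holds a CCAAT and an ATTGG that overlap, and TTTGAATTTGAA is a tandem pair.
CDK1: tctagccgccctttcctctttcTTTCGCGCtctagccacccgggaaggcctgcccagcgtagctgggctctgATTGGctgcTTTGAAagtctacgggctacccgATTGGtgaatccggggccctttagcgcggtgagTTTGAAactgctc
BUB1: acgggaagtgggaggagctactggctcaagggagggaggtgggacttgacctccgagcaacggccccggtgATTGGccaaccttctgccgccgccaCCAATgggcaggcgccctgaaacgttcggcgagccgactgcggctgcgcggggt
KIF11: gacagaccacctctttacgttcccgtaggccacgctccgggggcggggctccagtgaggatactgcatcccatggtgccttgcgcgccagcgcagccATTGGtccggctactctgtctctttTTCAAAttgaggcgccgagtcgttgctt
HMMR: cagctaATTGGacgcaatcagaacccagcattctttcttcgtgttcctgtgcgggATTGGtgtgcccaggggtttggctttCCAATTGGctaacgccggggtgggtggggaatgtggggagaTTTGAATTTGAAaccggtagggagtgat
Of the mitosis genes, 24 had an entry in the RefSeq promoter table, and of the S phase genes 26. In the 300-base windows (250 before and 50 after the start), TTTGAA was found in 16 mitosis promoters (66.7%) and 2 S phase promoters (7.69%), against 15.9% of all 27305. CCAAT was found in 19 mitosis promoters (79.2%) and 18 S phase promoters (69.2%), against 35.4% of all. An E2F site was found in 2 mitosis (8.33%) and 10 S phase promoters (38.5%), against 2.71% of all. A match in letters is a description and not a bound site.

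Leaving out each SEM library in turn kept CDK1 called with both hairpins in all 9 fits, and BUB1 and KIF11 with sh2 in all 9. With sh2, HMMR kept its call in 5 of 9 fits and lost it without NT replicate 1 (adjusted p = 0.0925), NT replicate 3 (0.0935), sh2 replicate 1 (0.0551) or sh2 replicate 2 (0.108). With sh5, BUB1 was lost without NT replicate 1 (adjusted p = 0.0580), NT replicate 3 (0.0610), sh5 replicate 1 (0.0542) or sh5 replicate 2 (0.109). KIF11 was lost without NT replicate 3 (adjusted p = 0.183), sh2 replicate 2 (0.0596), sh5 replicate 1 (0.0942), sh5 replicate 2 (0.0969) or sh5 replicate 3 (0.118), and DLGAP5 without NT replicate 1 (adjusted p = 0.0610), NT replicate 3 (0.0701), sh5 replicate 1 (0.0628), sh5 replicate 2 (0.0775) or sh5 replicate 3 (0.0510). CENPE kept its sh5 call in 1 of 9 fits and HMMR in 2 of 9, where CENPE was lost without NT replicate 1 (adjusted p = 0.141), NT replicate 3 (0.0960), sh2 replicate 1 (0.0633), sh2 replicate 2 (0.0734), sh2 replicate 3 (0.0710), sh5 replicate 1 (0.05001), sh5 replicate 2 (0.201) or sh5 replicate 3 (0.131). HMMR was lost without NT replicate 1 (adjusted p = 0.133), NT replicate 3 (0.147), sh2 replicate 2 (0.0550), sh2 replicate 3 (0.0581), sh5 replicate 1 (0.0700), sh5 replicate 2 (0.198) or sh5 replicate 3 (0.0731). With 1 library left out at a time, the number of mitosis genes called with sh5 was 1 without NT replicate 3, sh5 replicate 1 or sh5 replicate 2, 2 without NT replicate 1 or sh5 replicate 3, and 3 without sh2 replicate 2. Without NT replicate 2, sh2 called 6, adding DLGAP5 and CCNB2, cyclin B2. The share of all genes called in each of these fits is not given here. Summed myeloid markers rose and summed B-lymphoid markers fell with both hairpins in SEM. Of 8 myeloid markers, 3 passed the low-count filter. Their summed level was 14.6 to 21.3 CPM with NT, 35.2 to 50.7 with sh2 and 43.5 to 57.1 with sh5, mostly CSF1R (12.7 to 47.0 CPM). The 11 B-lymphoid markers summed to 1499 to 1639 CPM with NT, 1302 to 1338 with sh2 and 1279.7 to 1356 with sh5. Of 8 T and NK markers only NKG7 passed the filter, at 16.9 to 21.7 CPM with NT, 12.3 to 15.9 with sh2 and 15.9 to 21.5 with sh5. The 2 stromal and epithelial markers that passed summed to 3.23 to 3.98, 2.30 to 4.27 and 2.11 to 3.57 CPM in that order. The part of all these markers in the mitosis result was not tested.

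Among the S phase genes of SEM, only CCNE2 passed. CCNE2, or cyclin E2, the partner of CDK2 at the start of replication, was at 42.8, 37.7 and 42.6 CPM with NT, 42.3, 39.1 and 38.9 with sh2, and 54.4, 54.9 and 46.1 with sh5. The 3 sh5 libraries were above all NT and sh2 libraries. It rose with sh5 by 26.2% (log2 fold change 0.34 ± 0.08 (SE), adjusted p = 0.00656), kept the call in 9 of 9 fits that left out a library, and was not called with sh2 (-0.03 ± 0.08 (SE), 95% interval -0.20 to 0.14, adjusted p = 0.806). Set directly against sh5, sh2 was lower for CCNE2 (-0.37 ± 0.08 (SE), adjusted p = 0.00520), the 1 S phase gene called between the hairpins, where the background was 4.33% of genes higher and 8.02% lower with sh2. With sh2, 0 of 29 S phase genes passed edgeR (6 at an unadjusted p under 0.05, where 37.4% of all genes were, and 0 by DESeq2). Without NT replicate 1 the number was 3 (CHAF1A, UNG and CLSPN, higher), and it was 1 without NT replicate 3 or sh2 replicate 1 (CDT1, higher, and MCM10, lower). With sh5, 2 S phase genes were called without NT replicate 1 or NT replicate 3 (CLSPN and CDT1 added). These leave-out counts have no share of all genes beside them. Same-numbered SEM libraries deviated together, and a fit with the replicate number as a block called 8 S phase genes with sh2, 6 higher and 2 lower, and 5 with sh5, all higher. Of all genes, that fit called 19.3% higher and 18.5% lower with sh2, and 17.7% higher and 15.1% lower with sh5, so 6 and 5 of 29 are near its background. In that fit MCM5, a helicase subunit, was higher with sh2 (0.13 ± 0.05 (SE), adjusted p = 0.0333) and with sh5 (0.15 ± 0.05 (SE), adjusted p = 0.0200). CDT1, which loads the helicase, CLSPN, the checkpoint mediator claspin, and UNG, the uracil glycosylase, were also higher with both (adjusted p = 0.0144, 0.0111 and 0.0266 with sh2, and 0.0369, 0.0224 and 0.0372 with sh5). CHAF1A and SLBP, which serve histone deposition and histone messages, were higher with sh2, and MCM10 and RFC4, an initiation factor and a clamp loader subunit, were lower with it. The blocked fit called 7 mitosis genes with each hairpin, adding BUB1B, DLGAP5 and ECT2 to the 4 of sh2 and TTK to the 6 of sh5.

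Counted by arms that do not overlap, SEM had 8 mitosis genes and 1 S phase gene lower with sh2 (20.1% of all genes) and 2 and 4 higher (19.3%). With sh5, 7 mitosis genes and 1 S phase gene lay below NT (17.3% of all genes), and 0 and 3 above (18.3%). The higher ones with sh2 were MCM5, CHAF1A, SLBP and CLSPN for S phase and the mitotic kinase AURKB and the kinesin KIF23 for mitosis. The S phase median log2 fold change was -0.01 with sh2 and 0.03 with sh5, and the mitosis median was -0.05 and -0.04, against 0.01 and -0.01 over all genes. With 1 library left out they ran from -0.04 to 0.03 and -0.03 to 0.05 for S phase, and from -0.09 to 0.00 and -0.07 to -0.01 for mitosis, so the sign of both S phase medians and of the sh2 mitosis median turned. Replicates were tight in SEM, and the 95% interval of the fold change lay within 1.5-fold either way for 29 genes of each list with sh2 and for 28 S phase and 29 mitosis genes with sh5.

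In RS411, 0 of 58 members passed edgeR with sh2 (background 1.67%), 0 with sh5 (background 0.478%) and 0 between the hairpins (background 0.577%), and DESeq2 called 0 in each. At an unadjusted p under 0.05 there were 1 S phase and 0 mitosis genes with sh2 (18.2% of all genes), 4 and 0 with sh5 (11.3% of all genes) and 2 and 0 between the hairpins (12.8% of all genes). The same-numbered RS411 libraries also deviated together, and the blocked fit called 1 member with sh2 (background 14.5%), 3 with sh5 (background 5.41%) and 1 between the hairpins (background 9.06%), in each case a smaller share of the 58 than of all genes or near it. With sh2 it called RFC4, which was at 78.7, 74.4 and 77.7 CPM with NT, 64.8, 58.7 and 74.2 with sh2, and 69.8, 66.1 and 75.5 with sh5. The sh2 libraries lay below NT but overlapped sh5, and the blocked log2 fold change was -0.23 ± 0.06 (SE), adjusted p = 0.0154. With sh5 it called CDT1, at 102, 109 and 107 CPM with NT, 90.9, 92.5 and 105 with sh2, and 91.3, 90.3 and 84.9 with sh5. Here every sh5 library lay below NT, and the blocked log2 fold change was -0.25 ± 0.06 (SE), adjusted p = 0.0213. It also called TK1, the thymidine salvage kinase (-0.19 ± 0.05 (SE), adjusted p = 0.0436), and AURKB, the chromosomal passenger kinase (-0.20 ± 0.05 (SE), adjusted p = 0.0351). Between the hairpins it called MCM5, higher with sh2 (0.22 ± 0.05 (SE), adjusted p = 0.0172).

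Without the block, 8 S phase genes had all sh5 libraries of RS411 below NT, against 9.01% of all genes: MCM2, MCM3 and MCM5 of the helicase, GINS1 and CDC45, its partners at the fork, CDT1, TK1 and the histone chaperone CHAF1A. No mitosis gene did, and the mitosis genes varied more than the S phase genes within an arm (median SD 0.25 against 0.11 on the log2 scale). The S phase median was -0.04 with sh2 and -0.09 with sh5, the mitosis median -0.03 and -0.05, and the median of all genes 0.00 and -0.02. Leaving out 1 library turned the sign of the sh2 S phase median (-0.09 to 0.02) and of both mitosis medians (-0.16 to 0.11 with sh2, -0.18 to 0.08 with sh5), while the sh5 S phase median ran from -0.13 to -0.05. The 95% interval stayed within 1.5-fold for 29 S phase and 25 mitosis genes with sh2, and for 29 and 24 with sh5. Without sh2 replicate 3, the sh2 library that kept the most NSD2, 1 S phase gene, RFC4, was called with sh2 (-0.31, adjusted p = 0.0378).

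In RCH the sh2 arm sat lower on both lists without any member passing. With sh2, 0 of 58 passed edgeR (background 1.37%). At an unadjusted p under 0.05 there were 3 S phase and 6 mitosis genes, where 18.7% of all genes were, and the log2 fold change was negative for 24 of 29 S phase and 28 of 29 mitosis genes. The medians were -0.19 and -0.20, against -0.02 over all genes. With 1 library left out they ran from -0.24 to -0.10, nearest to 0 without NT replicate 2, and from -0.31 to -0.12, nearest to 0 without sh2 replicate 1 and farthest without sh2 replicate 3. All sh2 libraries were below NT for 10 S phase and 10 mitosis genes, against 13.3% of all genes. PLK1, the polo-like kinase of mitotic entry, had the lowest log2 fold change of the 58 (-0.66 ± 0.25 (SE), 95% interval -1.22 to -0.11, adjusted p = 0.202). MCM7 was at 590.0, 757 and 712 CPM with NT, 465, 489 and 476 with sh2, and 492, 694 and 753 with sh5. Its sh2 libraries lay below all others, with a log2 fold change of -0.53 ± 0.16 (SE), adjusted p = 0.138. BIRC5, the survivin subunit of the passenger complex, was at 155, 197 and 163 CPM with NT, 109, 132 and 120.1 with sh2, and 127, 190.0 and 176 with sh5, with sh2 below NT (-0.51 ± 0.17 (SE), adjusted p = 0.151). With sh5, 0 of 58 passed (background 0.0229%; 0 and 0 at an unadjusted p under 0.05, where 4.04% of all genes were) and the medians were 0.00 and 0.04, of either sign with 1 library left out. Between the hairpins, 0 passed (background 0% of genes; 4 and 8 at an unadjusted p under 0.05, where 9.81% of all genes were), with medians of -0.20 and -0.24, or -0.33 to -0.12 and -0.32 to -0.18 with 1 library left out. DESeq2 called 0 members in all 3.

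The sh2 libraries of RCH were also shallower than NT, with 21876505, 27390542 and 26431674 reads against 41705601, 31068506 and 54879265 with NT. Of 7 stromal and epithelial markers, 2 passed the low-count filter. These, mainly COL1A1, summed to 3.37 to 7.14 CPM with NT, 9.75 to 13.0 with sh2 and 2.44 to 14.3 with sh5. The 3 of 8 myeloid markers that passed the filter summed to 19.2 to 25.1, 11.4 to 17.2 and 18.6 to 27.7 CPM in that order. The part of depth and of these markers in the sh2 medians was not tested. Calls in RCH depended on the low-count filter: with every gene kept, MCM7 and FEN1, the flap endonuclease, passed for S phase, and CDC20, PLK1, KIF20A, BIRC5 and DLGAP5 for mitosis, all lower, where 2.54% of all genes were. Their adjusted p there was 0.0102 for MCM7, 0.0469 for FEN1, 0.00736 for CDC20, 0.00176 for PLK1, 0.0296 for the kinesin KIF20A, 0.0173 for BIRC5 and 0.0426 for DLGAP5. Without sh5 replicate 1, which enters through the shared spread, MCM7 (-0.53, adjusted p = 0.0381) and BIRC5 (-0.51, adjusted p = 0.0493) were called with sh2.

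A fit of NT and sh2 over RS411, RCH and SEM together tested the mean response and whether it differed between the lines. MCM7 was the 1 member whose mean response passed (log2 fold change -0.17 ± 0.05 (SE), adjusted p = 0.0239), where 7.54% of all genes were higher and 7.34% lower. It was also the 1 member whose response differed between lines (adjusted p = 0.0211; 8.37% of all genes). In RS411 MCM7 was at 722, 849 and 791 CPM with NT, 739.9, 813 and 853 with sh2, and 690.3, 723 and 696 with sh5, and in SEM at 871, 809.7 and 846 CPM with NT, 855, 789 and 802 with sh2, and 806, 868 and 848 with sh5. The sh2 and NT libraries overlapped in both of these lines, whereas in RCH sh2 lay below NT. Fitted alone, the log2 fold change with sh2 was 0.03 in RS411, -0.53 in RCH and -0.05 in SEM. The difference between lines stayed called in 18 of 18 fits that left out a library, and the mean response in 10 of 18. The mean response was lost without RCH NT replicate 2 (adjusted p = 0.0732), RCH sh2 replicate 1 (0.0561), RS411 NT replicate 2 (0.0555), RS411 sh2 replicate 1 (0.0651), RS411 sh2 replicate 2 (0.0554), SEM NT replicate 1 (0.0704), SEM sh2 replicate 2 (0.0590) or SEM sh2 replicate 3 (0.0524). No mitosis gene passed for the mean (3 of 29 at an unadjusted p under 0.05, where 27.2% of all genes were) or for the difference (1 of 29, where 23.8% of all genes were). With sh5, 0 of 58 passed for the mean (2.78% of all genes higher, 2.88% lower; 0 S phase and 0 mitosis genes at an unadjusted p under 0.05, where 17.3% of all genes were) or for the difference (2.17% of all genes; 1 and 0, where 10.4% of all genes were).

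Other settings changed which members the joint sh2 fit called. The replicate number was set as a block within each line, though in RCH same-numbered NT and sh2 libraries correlated at only -0.07 to 0.15. With it, the mean response of 3 S phase and 7 mitosis genes passed, all lower, where 9.96% of all genes were lower. They were MCM7 (adjusted p = 0.00564), MCM10 (0.0279) and GINS1 (0.0393) for S phase, and CDK1 (0.0419), CCNB1 (0.0173), CCNA2, cyclin A2 (0.0317), CDC20 (0.0189), PLK1 (0.00384), BIRC5 (0.0240) and DLGAP5 (0.0462) for mitosis. In that fit the response of MCM7 (0.00462), GINS1 (0.0280), FEN1 (0.0493), UNG (0.00293), CDC20 (0.00706), PLK1 (0.00350), KIF20A (0.0330) and BIRC5 (0.00853) differed between lines, where 16.5% of all genes did. With every gene kept, MCM7 lost its call for the mean (adjusted p = 0.0652) and PLK1 was called, lower (0.0292; 3.79% of all genes). The difference was then called for MCM7, FEN1, UNG, CDC20, PLK1, KIF20A and BIRC5 (7.37% of all genes).

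For the sh2 mean, 2 S phase genes were called without RCH NT replicate 1 (MCM10 added) and 3 without RS411 sh2 replicate 3 (MCM10 and the polymerase subunit POLA1 added). For the difference between lines, 2 were called without RS411 sh2 replicate 1, RS411 sh2 replicate 2, RCH NT replicate 3, RCH sh2 replicate 1 or SEM NT replicate 1, and 5 without RCH NT replicate 1 (GINS1, CDT1, FEN1 and UNG added). Shares of all genes in these leave-out fits are not given, so the counts have no background. The median of the mean response was -0.07 for S phase and -0.10 for mitosis with sh2, against -0.01 over all genes, and -0.03 and -0.02 with sh5, where both turned sign with 1 library left out. The MCM7 promoter is given for comparison with those of the mitosis genes, as the 150 bases before the RefSeq start on GRCh38.p14 at chr7:100100530-100100679, minus strand, with the same marking.
MCM7: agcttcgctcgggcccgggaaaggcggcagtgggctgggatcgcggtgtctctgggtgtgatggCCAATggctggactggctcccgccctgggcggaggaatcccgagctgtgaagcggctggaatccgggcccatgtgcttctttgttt
The 1 marked element in it is a CCAAT.

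**Figure D4:**
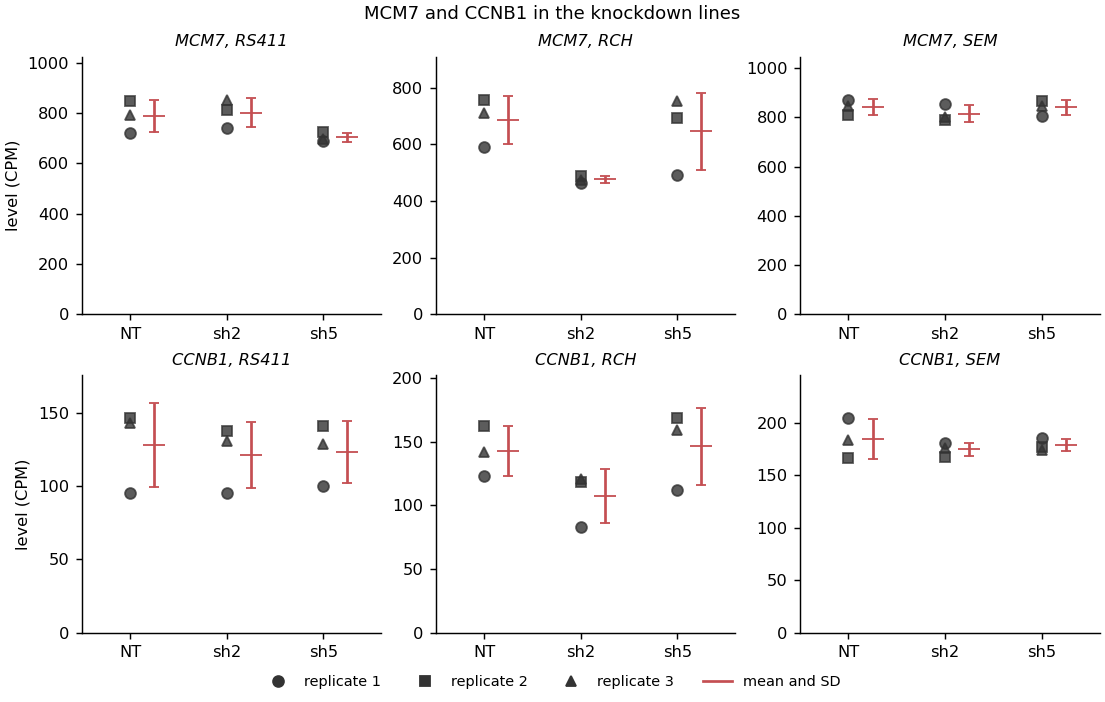
Levels of MCM7 and CCNB1 (CPM) in each library of RS411, RCH and SEM by arm, with bars for arm means. In RCH the sh2 libraries lie below NT for both genes, while in RS411 and SEM the sh2 and NT libraries overlap.

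In Reh, raising NSD2 left no member past the test: 0 of 58 with EK (edgeR, background 0.213%), 0 with WT (background 0.219%) and 0 between EK and WT (background 0%), with 0 at an unadjusted p under 0.05 in each list and comparison, where 6.15, 4.96 and 1.63% of all genes were, and 0 by DESeq2. The S phase median was -0.03 with EK and -0.09 with WT, the mitosis median -0.02 and -0.02, and the median over all genes 0.01 and -0.01. Each of these list medians had either sign with 1 library left out. With WT, 28 of 29 S phase genes had a negative log2 fold change, and 8 of them plus 4 mitosis genes had both libraries below EV, where 14.9% of all genes did. Those S phase genes were MCM6, CDC6, RRM1, TK1, CCNE2, PRIM1, RFC2 and FEN1. For TTK, a spindle checkpoint kinase, and MKI67 both WT libraries were above EV (15.4% of all genes). With EK, RRM1 and TK1, which supply deoxynucleotides, CCNE2, CDC25C and ANLN, the contractile ring protein anillin, had both libraries below EV (13.7% of all genes). The 95% interval lay within 1.5-fold for 28 S phase and 26 mitosis genes with EK. EK replicate 1 and replicate 2 stood on opposite sides of the EV mean for mitosis genes (median log2 deviation 0.17 and -0.20). The mitosis median with EK was -0.20 without replicate 1 and 0.15 without replicate 2.

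In 697 the EK arm had the lowest mitosis median of the 10 comparisons with a control, but no member passed. With EK, 28 S phase and 28 mitosis genes of 29 had a negative log2 fold change, with medians of -0.16 and -0.28 against -0.02 over all genes. By limma on log2(normalized count + 1), 0 of 58 passed (background 0.172%; 0 at an unadjusted p under 0.05, where 4.88% of all genes were), also with the replicate block and with edgeR on the reads recovered from the table. Leaving out 1 library moved the S phase median from -0.28 to -0.04 and the mitosis median from -0.56 to -0.09. Both came nearest to 0 without EV replicate 1. With WT, 0 of 58 passed (background 0.19%), with medians of -0.03 and -0.08 that ran from -0.15 to 0.08 and from -0.35 to 0.11 with 1 library left out. There was 1 mitosis gene at an unadjusted p under 0.05, where 2.87% of all genes were. That gene was UBE2C, the ubiquitin-conjugating enzyme of the anaphase-promoting complex, at 834, 751 and 507 normalized counts with EV, 396, 570.2 and 353 with WT, and 435, 576 and 437 with EK. Its arms overlapped, and its log2 fold change was -0.66 ± 0.24 (SE), adjusted p = 1. Between EK and WT 0 passed (background 0%; 0 at an unadjusted p under 0.05, where 0.723% of all genes were), with medians of -0.14 and -0.19, or -0.22 to -0.08 and -0.38 to -0.06 with 1 library left out. PRIM1, a primase subunit, and UNG had every EK library below EV (3.97% of all genes). The spread was wide in the fit without the replicate block, which keeps differences between replicate numbers in it. There the 95% interval lay within 1.5-fold for 22 S phase genes but for only 1 mitosis gene with EK, and within 2-fold for 26 mitosis genes.

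Libraries that share a replicate number moved together in the mitosis genes of RS411 and 697. In RS411, replicate 1 was the lowest of the 3 in every arm for all 29 mitosis genes, against 6.06% of all genes tested, and replicate 2 the highest for 28 (all genes 12.8%). Of the S phase genes only 2 were lowest in replicate 1 throughout. The median log2 deviation of the mitosis genes from the NT mean was -0.28, -0.36 and -0.27 in replicate 1 of NT, sh2 and sh5, and 0.21, 0.23 and 0.18 in replicate 2. In 697, replicate 3 was the lowest in every arm for 25 mitosis genes (all genes 15.2%) and 13 S phase genes, and replicate 1 the highest for 19 S phase genes (all genes 17.1%). In Reh, replicate 1 was the higher in each arm for 21 S phase and 19 mitosis genes (all genes 30.8%). Depth followed the numbers only in part. Replicate 1 of RS411 had 42190897, 67651596 and 40886215 reads in NT, sh2 and sh5, and replicate 2 had 35506764, 31246713 and 37115685, fewer in each arm. Replicate 3 had 27767490, 43252503 and 42753339, the shallowest with NT but the deepest with sh5. In 697, replicate 1 had 57179806, 55072911 and 48942916 reads in EV, WT and EK. Replicate 3, low for mitosis genes, had 45391491, 50667597 and 40664735, fewer than replicate 1 in each arm. Replicate 2 had 47426286, 47328038 and 43954735, so with WT replicate 3 was deeper than replicate 2. The labels do not give what the numbers stand for, and the part of depth was not tested. Within arms the median SD of the mitosis genes was 0.35 in 697, 0.25 in RS411, 0.18 in RCH, 0.15 in Reh and 0.07 in SEM on the log2 scale.

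**Figure D5:**
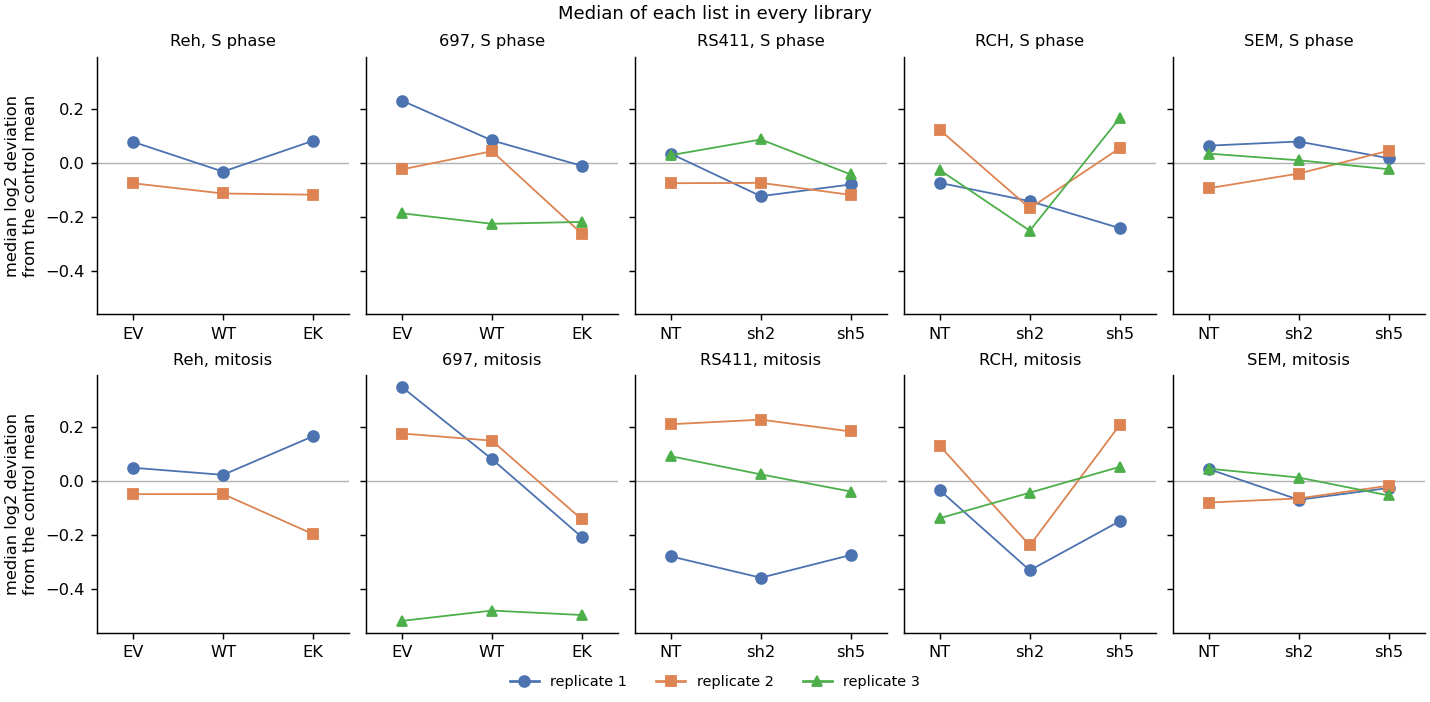
Median log2 deviation of the S phase and of the mitosis genes in each library from the mean of the line's control arm (EV or NT). Libraries are shown by arm, with lines joining those of the same replicate number. Mitosis genes of RS411 replicate 1 lie between -0.36 and -0.27, and those of 697 replicate 3 between -0.52 and -0.48, whereas SEM libraries run from -0.10 to 0.08.

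The S phase genes named by rule follow, ordered from origin licensing to nucleotide supply. MCM5, a subunit of the replicative helicase, was at 516 and 446 CPM with EV, 459 and 409 with WT, and 476 and 442 with EK in Reh. In 697 MCM5 was at 17779, 15633 and 14484 normalized counts with EV, 16839, 16497 and 13593 with WT, and 15999.9, 13495 and 14349.9 with EK. Replicate 1 was the higher in each Reh arm, and the arms overlapped in both lines. MCM5 in RS411 was at 349, 362 and 366 CPM with NT, 374, 357 and 379 with sh2, and 335, 307 and 311 with sh5. MCM5 in RCH was at 237, 295 and 279.9 CPM with NT, 233, 245 and 226 with sh2, and 254, 316 and 311 with sh5. MCM5 in SEM was at 390.2, 354 and 392 CPM with NT, 449.9, 394 and 401 with sh2, and 424, 419 and 416 with sh5. All sh5 libraries of RS411 lay below its NT and sh2 libraries (-0.18 ± 0.06 (SE), adjusted p = 0.328), in RCH sh2 overlapped NT, and in SEM both knockdown arms lay above NT, with the call made by the blocked fit alone. The log2 fold changes of MCM5 against the controls lay between -0.21 (RCH sh2 against NT) and 0.15 (SEM sh5 against NT), and their smallest adjusted p was 0.103.

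CDC6, which loads the helicase onto origins, was at 177 and 164 CPM with EV, 158 and 157 with WT, and 170.2 and 148 with EK in Reh. In 697 CDC6 was at 8734, 7322 and 5876 normalized counts with EV, 7771, 7802 and 6004 with WT, and 7636, 6020.4 and 5883 with EK. Both WT libraries of Reh lay below EV, while EK overlapped it, and in 697 all arms overlapped. CDC6 in RS411 was at 125, 99.8 and 119 CPM with NT, 108, 108 and 123 with sh2, and 117, 104 and 113 with sh5. CDC6 in RCH was at 83.9, 113 and 94.6 CPM with NT, 89.8, 78.1 and 69.4 with sh2, and 63.6, 107 and 115 with sh5. CDC6 in SEM was at 124, 107 and 116 CPM with NT, 127, 107 and 108 with sh2, and 112, 115 and 99.6 with sh5. The arms overlapped in these 3 lines, and sh5 replicate 1 was the lowest library of RCH. For CDC6 the 10 log2 fold changes spanned -0.29 (RCH sh2 against NT) to -0.02 (697 WT against EV) (smallest adjusted p = 0.464).

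E2F1, the transcription factor that switches on many S phase genes, was at 279 and 247 CPM with EV, 249 and 254 with WT, and 243 and 272 with EK in Reh. In 697 E2F1 was at 7110.0, 7864 and 6760.3 normalized counts with EV, 7425, 7999 and 6128 with WT, and 6849, 7252 and 6598 with EK. Arms overlapped in Reh and in 697. E2F1 in RS411 was at 104, 95.5 and 102 CPM with NT, 92.2, 86.0 and 99.7 with sh2, and 94.0, 81.2 and 97.0 with sh5. E2F1 in RCH was at 143, 139 and 138 CPM with NT, 115, 161 and 158 with sh2, and 151, 129 and 146 with sh5. E2F1 in SEM was at 98.4, 93.8 and 96.0 CPM with NT, 99.6, 92.1 and 94.1 with sh2, and 93.2, 102 and 99.5 with sh5. The arms again overlapped, with the sh2 libraries of RCH on either side of the NT values. Against EV or NT, E2F1 ranged in log2 fold change from -0.15 (RS411 sh5 against NT) to 0.05 (RCH sh2 against NT), and no adjusted p was under 0.476.

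CCNE1, cyclin E1, was at 29.3 and 24.7 CPM with EV, 32.1 and 25.8 with WT, and 32.3 and 28.2 with EK in Reh. In 697 CCNE1 was at 550.1, 525 and 453 normalized counts with EV, 628, 645 and 469.7 with WT, and 606, 467 and 502 with EK. The arms overlapped in both lines. CCNE1 in RS411 was at 17.3, 11.9 and 13.1 CPM with NT, 13.2, 12.5 and 13.5 with sh2, and 14.8, 11.8 and 14.0 with sh5. CCNE1 in RCH was at 13.4, 20.6 and 18.6 CPM with NT, 10.6, 14.2 and 13.7 with sh2, and 9.38, 17.9 and 17.2 with sh5. CCNE1 in SEM was at 5.17, 4.09 and 4.38 CPM with NT, 4.91, 3.36 and 4.38 with sh2, and 5.85, 6.02 and 4.44 with sh5. SEM had the lowest levels of the knockdown lines, and arms overlapped in all 3. Over the 10 comparisons with EV or NT its log2 fold change ran from -0.45 (RCH sh2 against NT) to 0.26 (SEM sh5 against NT), with a smallest adjusted p of 0.304.

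CCNE2, the second E-type cyclin, was at 77.5 and 81.4 CPM with EV, 69.9 and 73.3 with WT, and 71.4 and 67.0 with EK in Reh. In 697 CCNE2 was at 5201, 4029 and 2908 normalized counts with EV, 5309, 4577 and 3157 with WT, and 4939, 2998 and 3050.0 with EK. In Reh both WT and both EK libraries lay below EV, without passing the test, and in 697 replicate 1 was the highest of each arm. CCNE2 in RS411 was at 109, 79.2 and 92.8 CPM with NT, 82.9, 97.7 and 99.4 with sh2, and 96.9, 84.6 and 92.8 with sh5. CCNE2 in RCH was at 108, 111 and 88.8 CPM with NT, 119, 77.2 and 74.4 with sh2, and 66.0, 109 and 122 with sh5. Arms overlapped in RS411 and RCH, and the SEM values are those given above. The log2 fold changes of CCNE2 against the controls lay between -0.20 (Reh EK against EV) and 0.34 (SEM sh5 against NT), and their smallest adjusted p was 0.00656.

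PCNA, the polymerase clamp, was at 787 and 669 CPM with EV, 719 and 648 with WT, and 827 and 635 with EK in Reh. In 697 PCNA was at 24199.9, 19932 and 18906 normalized counts with EV, 21247, 20781 and 20527 with WT, and 21539.5, 15213 and 18204 with EK. Replicate 1 was the higher in each Reh arm, EK replicate 2 was the lowest library of 697, and the arms overlapped in both lines. PCNA in RS411 was at 454, 391 and 443 CPM with NT, 408, 388 and 456 with sh2, and 407, 395 and 433 with sh5. PCNA in RCH was at 431, 529 and 434 CPM with NT, 437, 434 and 358 with sh2, and 338, 463 and 567 with sh5. PCNA in SEM was at 458, 390.1 and 417 CPM with NT, 429.8, 387 and 386 with sh2, and 407, 424 and 398 with sh5. Arms overlapped in each of these lines, and sh5 replicate 1 was the lowest library of RCH. For PCNA the 10 log2 fold changes spanned -0.20 (697 EK against EV) to 0.01 (Reh EK against EV) (smallest adjusted p = 0.460).

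RRM2, the regulated subunit of ribonucleotide reductase, was at 372 and 338 CPM with EV, 366 and 341 with WT, and 371 and 319 with EK in Reh. In 697 RRM2 was at 15106, 9495 and 7979 normalized counts with EV, 12599.7, 10589 and 8608 with WT, and 11438, 9767 and 8711 with EK. Arms overlapped in Reh, and in each 697 arm replicate 1 was the highest and replicate 3 the lowest. RRM2 in RS411 was at 256, 223 and 244 CPM with NT, 195, 231 and 250.1 with sh2, and 227, 229.9 and 219.8 with sh5. RRM2 in RCH was at 239, 263 and 237 CPM with NT, 257, 215 and 198 with sh2, and 196, 271 and 244 with sh5. RRM2 in SEM was at 354, 284 and 378 CPM with NT, 359, 330.3 and 369 with sh2, and 366, 363 and 336 with sh5. NT replicate 2 was the lowest library of SEM, and arms overlapped in all 3 lines. Against EV or NT, RRM2 ranged in log2 fold change from -0.14 (RCH sh2 against NT) to 0.07 (SEM sh5 against NT), and no adjusted p was under 0.604.

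TK1, thymidine kinase, was at 156 and 144 CPM with EV, 124 and 129.9 with WT, and 131 and 138 with EK in Reh. In 697 TK1 was at 4712, 3247 and 2847 normalized counts with EV, 3988, 3652 and 2762 with WT, and 3718, 3162 and 2605 with EK. Both WT and both EK libraries of Reh lay below EV, and in 697 the arms overlapped with replicate 3 the lowest in each. TK1 in RS411 was at 104, 119 and 114 CPM with NT, 101, 109.7 and 114 with sh2, and 97.8, 101 and 96.2 with sh5. TK1 in RCH was at 86.3, 90.6 and 77.0 CPM with NT, 106, 83.7 and 77.3 with sh2, and 88.0, 97.9 and 90.8 with sh5. TK1 in SEM was at 132, 108 and 140.3 CPM with NT, 149.7, 134 and 138 with sh2, and 128, 130.4 and 138 with sh5. In RS411 every sh5 library lay below NT (-0.19 ± 0.07 (SE), adjusted p = 0.336), and the arms overlapped in RCH and SEM. Over the 10 comparisons with EV or NT its log2 fold change ran from -0.24 (Reh WT against EV) to 0.15 (SEM sh2 against NT), with a smallest adjusted p of 0.211.

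The mitosis genes follow in the order of their action. CDK1, described above for SEM, was at 353 and 348 CPM with EV, 348 and 345 with WT, and 391 and 302 with EK in Reh. In 697 CDK1 was at 10504, 9329 and 5143 normalized counts with EV, 9378, 9056 and 5705 with WT, and 7945, 6567 and 5658 with EK. The EV and WT libraries of Reh lay between the 2 EK libraries, and replicate 3 was the lowest in each arm of 697. CDK1 in RS411 was at 188, 255 and 234 CPM with NT, 172, 237 and 222 with sh2, and 185, 239.7 and 228 with sh5. CDK1 in RCH was at 252, 255 and 219 CPM with NT, 201, 201 and 234 with sh2, and 192, 232 and 274 with sh5. Replicate 1 was the lowest and replicate 2 the highest in each arm of RS411, and arms overlapped in RS411 and RCH. The log2 fold changes of CDK1 against the controls lay between -0.26 (697 EK against EV) and -0.01 (Reh WT against EV), and their smallest adjusted p was 0.00354.

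CCNB1, cyclin B1, the mitotic partner of CDK1, was at 225 and 171 CPM with EV, 222 and 168 with WT, and 277 and 162 with EK in Reh. In 697 CCNB1 was at 6023, 4899 and 3009 normalized counts with EV, 4589, 4881 and 3261 with WT, and 4214, 3683 and 3184 with EK. Replicate 1 was the higher in each Reh arm and replicate 3 the lowest in each arm of 697, with overlapping arms. CCNB1 in RS411 was at 95.4, 147 and 143 CPM with NT, 95.8, 138 and 131 with sh2, and 100.2, 142 and 129 with sh5. CCNB1 in RCH was at 123, 162 and 142 CPM with NT, 82.6, 118 and 121 with sh2, and 112, 168 and 159 with sh5. CCNB1 in SEM was at 204, 166 and 183 CPM with NT, 180.5, 168 and 176 with sh2, and 185, 177 and 174 with sh5. In RCH every sh2 library lay below NT (-0.41 ± 0.19 (SE), adjusted p = 0.281) while sh5 overlapped it, and in RS411 and SEM the arms overlapped. For CCNB1 the 10 log2 fold changes spanned -0.41 (RCH sh2 against NT) to 0.15 (Reh EK against EV) (smallest adjusted p = 0.281).

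PLK1, the polo-like kinase, was at 122 and 84.0 CPM with EV, 118 and 82.5 with WT, and 140.3 and 87.9 with EK in Reh. In 697 PLK1 was at 4402, 3939.6 and 2218 normalized counts with EV, 3726, 4083 and 2288 with WT, and 3158, 4098 and 2427 with EK. Replicate 1 was the higher in each Reh arm, and in 697 replicate 3 was the lowest of each arm. PLK1 in RS411 was at 41.4, 65.2 and 57.7 CPM with NT, 38.4, 59.5 and 53.8 with sh2, and 40.8, 57.3 and 47.7 with sh5. PLK1 in RCH was at 53.2, 77.1 and 74.1 CPM with NT, 33.4, 46.7 and 48.8 with sh2, and 48.3, 88.6 and 50.4 with sh5. PLK1 in SEM was at 61.4, 52.3 and 71.4 CPM with NT, 62.3, 64.0 and 66.2 with sh2, and 57.9, 65.8 and 65.7 with sh5. In RCH every sh2 library lay below NT, with sh5 spanning both, and arms overlapped in RS411 and SEM. Against EV or NT, PLK1 ranged in log2 fold change from -0.66 (RCH sh2 against NT) to 0.15 (Reh EK against EV), and no adjusted p was under 0.202.

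AURKA, the kinase of the spindle poles, was at 114 and 106 CPM with EV, 111 and 109 with WT, and 129.9 and 105 with EK in Reh. In 697 AURKA was at 4093, 3436 and 1615 normalized counts with EV, 2953, 3364 and 1858 with WT, and 2630.5, 2687 and 1752 with EK. Arms overlapped in both lines, and replicate 3 was the lowest of each 697 arm. AURKA in RS411 was at 42.4, 63.4 and 57.5 CPM with NT, 41.7, 62.2 and 54.8 with sh2, and 38.9, 62.6 and 52.6 with sh5. AURKA in RCH was at 63.4, 68.9 and 62.7 CPM with NT, 46.3, 52.8 and 57.7 with sh2, and 55.4, 74.8 and 66.0 with sh5. AURKA in SEM was at 62.8, 55.3 and 68.9 CPM with NT, 67.7, 62.9 and 70.3 with sh2, and 62.9, 61.9 and 68.5 with sh5. Every sh2 library of RCH lay below NT (-0.31 ± 0.14 (SE), adjusted p = 0.262), and arms overlapped in RS411 and SEM. Over the 10 comparisons with EV or NT its log2 fold change ran from -0.31 (RCH sh2 against NT) to 0.10 (SEM sh2 against NT), with a smallest adjusted p of 0.262.

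CDC20, the activator of the anaphase-promoting complex, was at 167 and 118 CPM with EV, 153 and 114 with WT, and 200.1 and 112 with EK in Reh. In 697 CDC20 was at 9805, 7493 and 4893 normalized counts with EV, 8129, 7827 and 5349 with WT, and 7895, 6791 and 5106 with EK. Replicate 1 was the higher in each Reh arm, most of all with EK, and the arms of 697 overlapped. CDC20 in RS411 was at 66.8, 103 and 98.8 CPM with NT, 66.9, 97.4 and 94.2 with sh2, and 67.2, 87.4 and 82.8 with sh5. CDC20 in RCH was at 80.9, 142 and 130.1 CPM with NT, 64.3, 88.7 and 85.6 with sh2, and 86.5, 147 and 126 with sh5. CDC20 in SEM was at 159, 124 and 143 CPM with NT, 151, 148 and 147 with sh2, and 144, 145 and 151 with sh5. Replicate 1 of each RS411 arm was the lowest, sh2 of RCH overlapped NT at one library, and the SEM arms overlapped. The log2 fold changes of CDC20 against the controls lay between -0.57 (RCH sh2 against NT) and 0.13 (Reh EK against EV), and their smallest adjusted p was 0.246.

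TOP2A, the topoisomerase that untangles sister chromatids, was at 1101 and 1139.7 CPM with EV, 1152 and 1124 with WT, and 1187 and 1022 with EK in Reh. In 697 TOP2A was at 59162, 58767 and 35130.5 normalized counts with EV, 52288, 56294 and 35401 with WT, and 38709.7, 46721 and 34593 with EK. Arms overlapped in both lines, with replicate 3 the lowest of each 697 arm. TOP2A in RS411 was at 616, 843 and 793 CPM with NT, 603, 886 and 771 with sh2, and 644, 875 and 739 with sh5. TOP2A in RCH was at 971, 978 and 828 CPM with NT, 801, 817 and 977 with sh2, and 887, 1041 and 962 with sh5. TOP2A in SEM was at 981, 966 and 1007 CPM with NT, 915, 941 and 993 with sh2, and 938, 885 and 907 with sh5. Every sh5 library of SEM lay below NT, without passing the test, and arms overlapped in RS411 and RCH. For TOP2A the 10 log2 fold changes spanned -0.32 (697 EK against EV) to 0.06 (RCH sh5 against NT) (smallest adjusted p = 0.139).

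MKI67, the proliferation antigen Ki-67, was at 783 and 798 CPM with EV, 827 and 842 with WT, and 683 and 808 with EK in Reh. In 697 MKI67 was at 10731, 10470.5 and 6666 normalized counts with EV, 11156, 11173 and 6835 with WT, and 7485, 25218 and 9246 with EK. In Reh both WT libraries lay above EV, and in 697 EK replicate 2 stood above the other 8 libraries, which ran from 6666 to 11173 normalized counts. MKI67 in RS411 was at 226, 299 and 263 CPM with NT, 177, 377 and 236 with sh2, and 190.1, 267 and 225 with sh5. MKI67 in RCH was at 185, 233 and 276 CPM with NT, 183, 186 and 237 with sh2, and 213, 299 and 205 with sh5. MKI67 in SEM was at 203, 234 and 261 CPM with NT, 199, 288 and 254 with sh2, and 231, 243 and 215 with sh5. Arms overlapped in RS411, RCH and SEM, and replicate 1 of RS411 was the lowest in each arm. Against EV or NT, MKI67 ranged in log2 fold change from -0.21 (RS411 sh5 against NT) to 0.41 (697 EK against EV), and no adjusted p was under 0.599.

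Other genes of the cycle were counted from 3 further lists, 42 other S phase genes, 48 other mitosis genes and 30 genes of cycle entry and its brakes. In SEM with sh2, 1 other S phase gene was higher (ASF1B, a histone chaperone, 0.17 ± 0.06 (SE), adjusted p = 0.0432) and 6 were lower, led by RFC5 (-0.51), a clamp loader subunit, E2F2 (-0.34), DSCC1 (-0.27) and GINS4 (-0.27). Other mitosis genes gave 3 higher (MELK 0.20, CCNF 0.20 and KIF18B 0.28) and 2 lower (DEPDC1 -0.27 and PLK4 -0.23). Of the entry genes and brakes, the G1 cyclin CCND1 (1.74 ± 0.27 (SE), adjusted p = 0.000183) and the inhibitors CDKN2A (0.29), CDKN2B (1.45) and CDKN1A (0.17) were higher, and WEE1 (-0.48), E2F5 (-0.80), LIN9 (-0.22) and LIN52 (-0.29) lower, where WEE1 restrains CDK1 and LIN9 and LIN52 are MuvB subunits. Against the 13.5% of all genes higher and 14.4% lower with sh2, no count of these lists was above the background. With sh5 in SEM, 0 other S phase genes were higher and 5 lower (RFC5 -0.41, DUT -0.31, E2F2 -0.32 and RFC3 -0.18 first). For other mitosis genes the numbers were 0 and 6 (PLK4 -0.20, MAD2L1 -0.22, NUF2 -0.20 and ASPM -0.21 first). For entry genes and brakes they were 4 (CDKN2A 0.35, CDKN2B 1.61, CDKN2C 0.29 and CCND1 1.15) and 2 (E2F5 -0.70 and WEE1 -0.19), where 11.1% of all genes were higher and 10.2% lower, so these counts were near that background or below it. Between the SEM hairpins, DUT (0.20), UHRF1 (0.23) and RBL2 (0.23) were higher with sh2, and WEE1 (-0.30) and LIN52 (-0.46) lower, against 4.33% and 8.02% of all genes. In RCH with sh2, CDKN2A was higher (1.71 ± 0.33 (SE), adjusted p = 0.0372), and in RS411 with sh2, RPA2, part of the single-strand binding complex, was higher (0.31 ± 0.06 (SE), adjusted p = 0.0360). None of the 3 lists had a called gene in Reh or 697.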

How the data were processed

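RNA-seq was available for 42 libraries of 5 cell lines. The submitters' processing notes name Trimmomatic, STAR, featureCounts and hg19, without versions. The deposited tables held raw read counts per gene for Reh, RS411, RCH and SEM. For 697 only a normalized signal per gene was used, which is the authors' read count divided by 1 factor per library, as the deposited values show. Of its values above 0, 100% came out as whole reads (tolerance 0.001), and edgeR on those reads called 24 genes with EK and 28 with WT. The Reh counts carry Ensembl identifiers and took their symbols from the matching rows of the Reh normalized table, whose recovered reads equalled the raw ones in 57820 of 57820 rows. NSD2 is listed as WHSC1. In the tables of RS411, RCH and SEM, 27 gene names had turned into dates (0.214 to 0.247% of reads), none of them a member, and 6 value columns matched no sample and were not used.

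Counts were tested per line with edgeR 4.0.16 (R 4.3.3; quasi-likelihood F-test, TMM factors, filterByExpr by arm, all 3 arms in 1 fit), and 697 with limma 3.58.1 after adding 1 and taking log2, over genes whose mean normalized count was 10 or more. Adjusted p-values are Benjamini-Hochberg over all genes tested, and fold changes of 697 are on the log2(value + 1) scale. All 58 members passed the filters in every line. RS411, RCH and SEM were also fitted together, once for sh2 and once for sh5. Levels are TMM-scaled CPM. The members and gene lists were chosen with earlier results of these data known. Values in every library are given for up to 3 called members per list and comparison and for 15 members named whatever their values. Genes of the other lists are counts with at most 4 called names per direction. Promoters are from RefSeq and exon lengths from GENCODE 29, both on GRCh38. Same-numbered libraries, numbered in the sample titles, correlated in their deviations from arm means at 0.42 to 0.60 in 697, 0.12 to 0.33 in RS411 and 0.11 to 0.29 in SEM, so a blocked fit is given beside those results where it changes a call. The alternatives were RLE factors, DESeq2 1.42.0, no low-count filter, other minimum means and pseudocounts for 697, the replicate block and leaving out each library. The scripts were tested on simulated data.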

Additional observations from a re-analysis of the deposited data

Results flagged for a closer look

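MCM7 stood out because its response to sh2 differed between the knockdown lines by a test of the difference itself (edgeR, adjusted p = 0.0211). That test called 8.37% of all genes and 1 of the 58 members, a smaller share. Fitted in RCH alone, MCM7 was not called with sh2 (edgeR, adjusted p = 0.138). The log2 fold change of sh2 against NT was 0.03 ± 0.08 (SE) in RS411, -0.53 ± 0.16 in RCH and -0.05 ± 0.05 in SEM, with all 3 sh2 libraries of RCH below its NT libraries. For sh5 the test of the difference (edgeR) gave an adjusted p of 0.979.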

How the results depend on the processing

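Of the counts of called members under the alternatives, 495 stayed within 1.5 times the reported one, 36 rose and 15 dropped, and no called value changed direction. RLE factors, DESeq2, the 697 filters and pseudocount, and the recovered reads moved no count by more than 1.5 times, though DESeq2 called 4 mitosis genes and not 6 for SEM sh5, and keeping all genes called 4 there. Leaving out 1 library turned the sign of 21 of 34 list medians. The replicate block gave 1 S phase gene in RS411 for sh2, 2 S phase and 1 mitosis gene for sh5, and 1 S phase gene between the hairpins. In SEM it gave 8 S phase and 7 mitosis genes for sh2 and 5 S phase genes for sh5. In the joint sh2 fit the block, by line and number, gave 3 S phase and 7 mitosis genes for the mean and 4 of each for the difference. In RCH, same-numbered libraries correlated at 0.24 to 0.62 between NT and sh5, but at -0.07 to 0.16 in pairs with sh2. The block there gave 1 S phase and 5 mitosis genes for sh2 and 1 mitosis gene between the hairpins. The share of all genes in that RCH fit is not given here, so these counts are not set against a background. In Reh the correlation was 0.55 to 0.58 over 2 numbers only, and the block changed no count there or in 697. Keeping all genes gave 2 S phase and 5 mitosis genes for RCH sh2, 3 mitosis genes for RCH sh2 against sh5, 0 S phase and 1 mitosis gene for the joint sh2 mean, and 3 and 4 for its difference. The share of all genes is given above for these fits, except for RCH sh2 against sh5, whose count has no background here. With 1 library left out, S phase counts ranged from 0 to 1 for RS411 sh2, 0 to 1 for RCH sh2, 0 to 3 for SEM sh2, 1 to 2 for SEM sh5, 0 to 3 for the joint sh2 mean and 1 to 5 for the joint sh2 difference. Mitosis counts ranged from 0 to 1 for RCH sh2, 3 to 6 for SEM sh2 and 1 to 6 for SEM sh5. The cause of these differences was not tested. No share of all genes is given for the leave-out fits, here or above, so their counts are not set against a background. With 2 libraries per arm, Reh leave-outs assume that a lone library varies like the others. The 95% intervals given above are from the fits without the replicate block. Changes smaller than these intervals were not detectable in those fits, while the blocked fit has a spread of its own.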
